A study of Mus musculus with 4 samples.

Results

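The NOD receptors and the proteins that signal through caspase recruitment domains (CARDs) were followed as 8 genes, Nod1, Nod2, Ripk2, Card9, Nlrc5, Nlrx1, Malt1 and Bcl10. An array feature (probe) was taken as a member when its platform annotation, brought to current symbols, named one of these genes. This gave 11 probes for 6 of the 8 genes, out of 20289 genes with a named probe. No named probe stood for Ripk2 or Card9, so neither was analysed here. Nod1 and Nlrc5 had 1 probe each, Nod2, Malt1 and Bcl10 had 2 each, and Nlrx1 had 3. The Nlrc5 probe carried an older clone name and was matched through its transcript accession.

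The arrays held RNA of RAW G9 cells, a single clone of the RAW264.7 mouse macrophage cell line that carries a GFP-RelA reporter under the Rela promoter and an mCherry reporter under the Tnf promoter. Both groups were cells of this clone in fresh medium. One received 10 ng/ml LPS from Salmonella minnesota R595 for 4 h (2 arrays, replicates A and B) and the other was left untreated (2 arrays, replicates A and B). The labels give the untreated cells an incubation of 0 h, and the methods give the same 4 h for both.

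NOD1 and NOD2 are cytosolic receptors for fragments of bacterial peptidoglycan. On binding their ligand they recruit the kinase RIPK2 through CARD contacts, and RIPK2 becomes a platform for ubiquitin chains that bring in the TAK1 and IKK kinases and release NF-kB. CARD9 assembles with BCL10 and MALT1 below C-type lectin receptors and feeds the same IKK step, while NLRC5 is a transactivator of MHC class I genes and NLRX1 is a mitochondrial member of the NOD-like receptor family. LPS itself is sensed by another receptor, TLR4.

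Illumina bead signal was read on a linear scale, each value being the mean over the beads of one probe. A probe was called detected at a detection p under 0.1, the share of negative control beads at least as bright. By this rule on both arrays of a condition, all 6 measured genes were detected with LPS and 4 in untreated cells, namely Nlrc5, Nlrx1, Malt1 and Bcl10. Of all 20289 genes with a named probe, 43.2% were detected with LPS and 45.7% in untreated cells. For the comparison, signals were background corrected, quantile normalized between arrays and put on a log2 scale (normalized log2 level). A probe entered the test when LPS cells, untreated cells or both had it detected on their 2 arrays, which left 17211 probes, 7 of them of member genes. Of these 7, 6 differed between the conditions, against 32.6% of all tested probes. Of the 7, 5 were higher with LPS, against 13.5% of all tested probes (2332), and 1 was lower, against 19% (3273), at an adjusted p under 0.05 (limma, Benjamini-Hochberg over all tested probes). The higher probes were those of Nod1, Nod2, Nlrc5, Malt1 and Bcl10. The lower one was a probe of Nlrx1. Nod1 and Nod2 entered the test only through the LPS arrays, where they were high, so these counts describe the probes that entered and are no support for a shift of the members.

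The median signal of an array was 104.1 and 105.1 in LPS cells and 117.8 and 114.1 in untreated cells, and 16380 to 17892 of 45281 probes were detected per array. Most member probes lay close to these medians, so signals are given beside normalized values. The untreated arrays shared 1 slide and the LPS arrays lay on a slide each, neither of them that one, so an effect of the slide and of LPS cannot be told apart. The untreated arrays correlated at r = 0.997 and the LPS arrays at r = 0.989 over the tested probes, described across probes only. Duplicates were called biological in the study's methods, and with 2 arrays per condition the spread rests on few samples. Macrophage markers were detected for 9 of 10 genes in both conditions, the exception being Mertk. None of 13 probed T cell, B cell and fibroblast genes was detected. In the neutrophil list S100a8 and Elane were detected of 4 probed genes, and the list's summed normalized level over its 7 probes was 214.6 and 220.6 in LPS cells and 171.5 and 176.7 in untreated cells. In the epithelial list Krt8 and Cdh1 were detected of 4 probed genes, Cdh1 with LPS only. The sums were 147.1 and 157.7 in LPS cells and 132.7 and 134.6 in untreated cells. Both lists' sums include probes that were not detected. The macrophage sums were 50672 and 48545 in LPS cells and 51091 and 48929 in untreated cells. Bright probes such as those of Cd14 and Lyz2 weigh most in them. By each gene's brightest tested probe, Fcgr1 (2.01), Mpeg1 (0.94) and Adgre1 (0.67) were higher at a limma adjusted p under 0.05. Csf1r was lower (-0.92), and 5 macrophage genes did not pass. Other Adgre1 probes did not pass (-0.11 and 0.40), and another Lyz2 probe was lower (-1.57). Over all tested genes 13.7% were higher and 21.4% lower. S100a8 passed as higher (0.85, limma adjusted p = 0.0039) and Elane did not pass (0.31, adjusted p = 0.194). The part of the macrophage, neutrophil and epithelial differences in the results was not tested. In bulk RNA, fewer cells expressing a gene and less RNA per cell cannot be told apart.

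**Figure D1:**
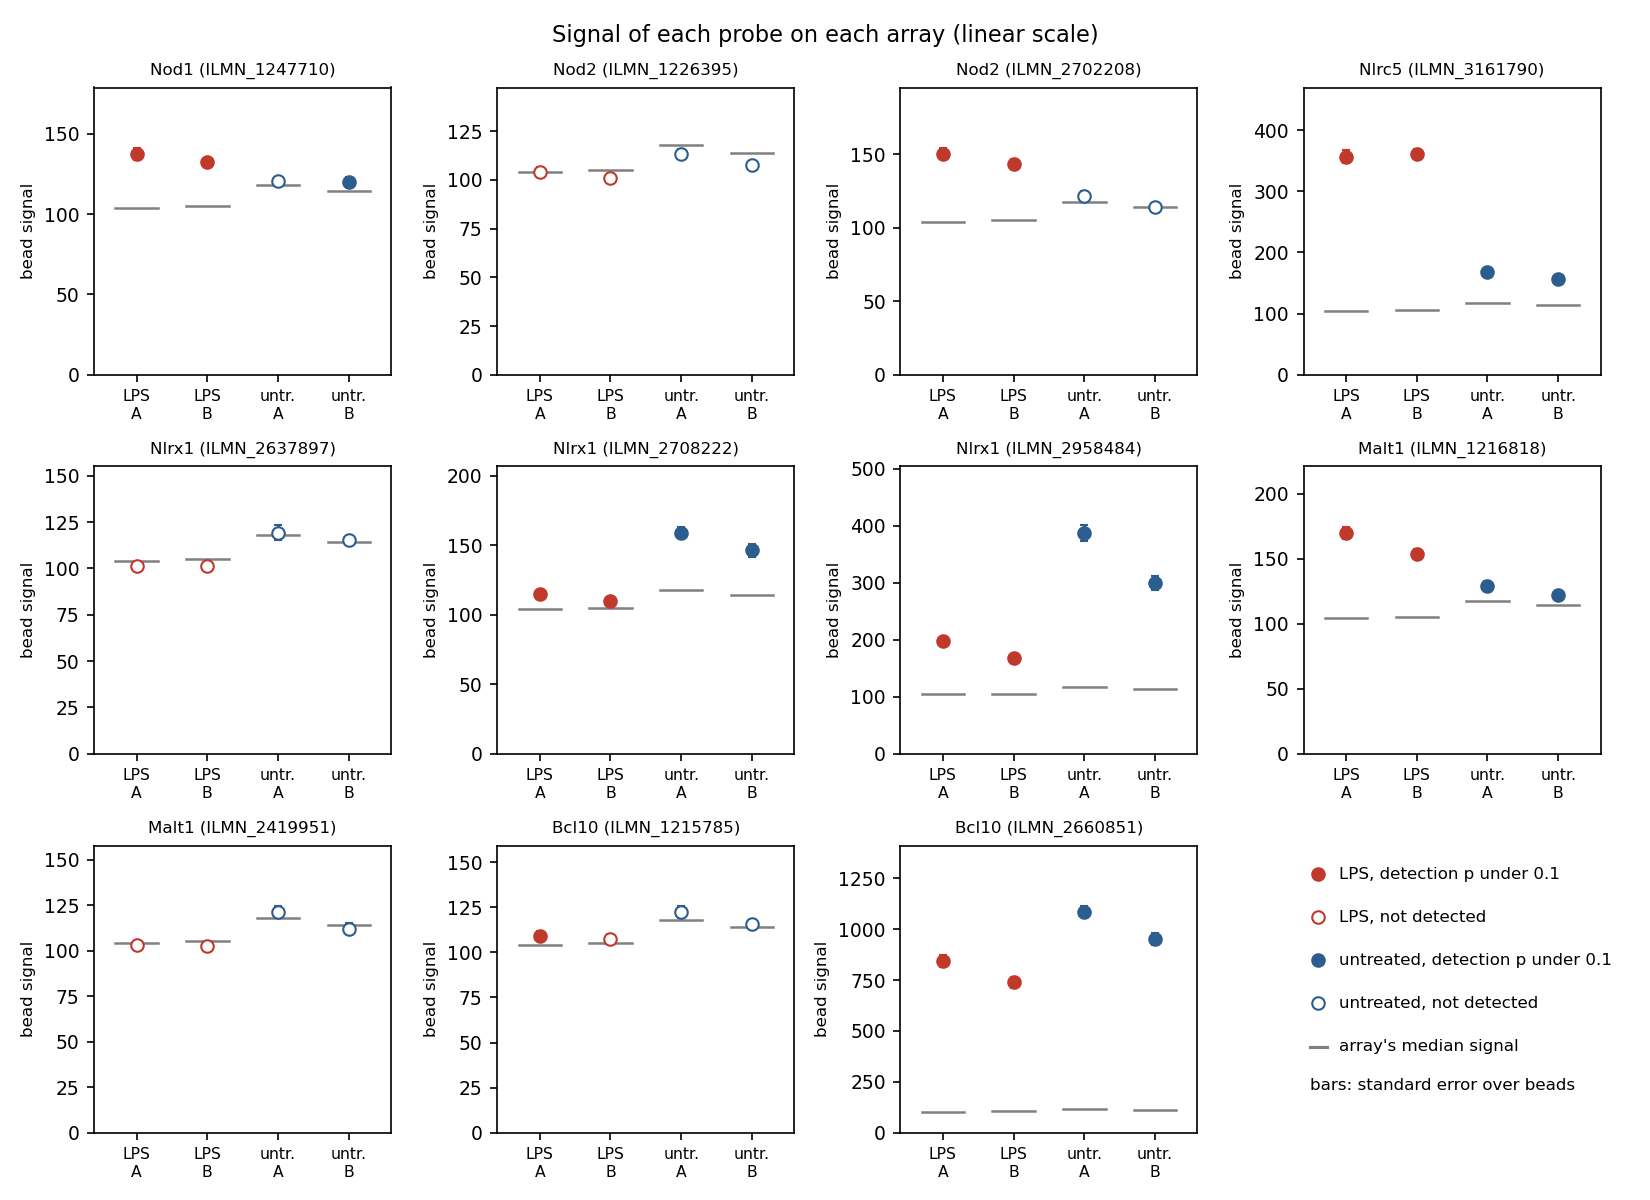
Bead signal (linear scale, y axis from 0) of all 11 member probes on the 2 LPS arrays and the 2 untreated arrays, with bars for the standard error over beads, open circles for arrays where the probe was not detected, and grey lines for each array's median signal. The Nlrc5 probe stood at 356.6 and 361.3 with LPS and at 167.8 and 156.7 in untreated cells, whereas the Nod1, Nod2 and Malt1 probes changed by smaller amounts above a background of about the array median.

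Promoter windows of 4 of the 6 measured genes were read from the RefSeq promoter table (build GRCm38.p6), 250 bases before to 50 bases after a transcription start, 5′ to 3′ on the gene's own strand. The windows were not chosen by response. As reported, Nod1, Nod2 and Bcl10 passed as higher and 1 probe of Nlrx1 as lower, and the Bcl10 call depended on the scaling. Capitals mark every match to 4 motifs searched on both strands: the NF-kB site, the interferon-stimulated response element GAAANNGAAA, the GAS site TTCNNNGAA and the AP-1 site TGANTCA. Nod1 and Nlrx1 have 2 starts in the table and 1 window of each is printed.
Nod1, chr6:54971612-54971911, minus strand: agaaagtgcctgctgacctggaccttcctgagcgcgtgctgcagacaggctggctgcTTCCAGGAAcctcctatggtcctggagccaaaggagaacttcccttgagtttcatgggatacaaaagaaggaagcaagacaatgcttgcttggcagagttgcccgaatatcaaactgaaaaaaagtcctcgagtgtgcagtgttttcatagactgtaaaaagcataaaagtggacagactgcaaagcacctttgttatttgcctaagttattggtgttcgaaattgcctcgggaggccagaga
Nod2, chr8:88647097-88647396, plus strand: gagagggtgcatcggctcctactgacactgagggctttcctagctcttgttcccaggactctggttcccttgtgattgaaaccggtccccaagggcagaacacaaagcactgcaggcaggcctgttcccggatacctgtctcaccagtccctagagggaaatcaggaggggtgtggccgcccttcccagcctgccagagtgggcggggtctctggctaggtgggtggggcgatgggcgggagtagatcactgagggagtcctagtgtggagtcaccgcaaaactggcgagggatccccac
Nlrx1, chr9:44268442-44268741, minus strand: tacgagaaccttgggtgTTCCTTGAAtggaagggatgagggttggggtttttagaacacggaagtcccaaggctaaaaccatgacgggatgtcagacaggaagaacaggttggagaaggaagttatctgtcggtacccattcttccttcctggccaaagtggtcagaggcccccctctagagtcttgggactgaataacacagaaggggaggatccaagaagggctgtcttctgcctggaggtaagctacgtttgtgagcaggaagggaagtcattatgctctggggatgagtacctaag
Bcl10, chr3:145924012-145924311, plus strand: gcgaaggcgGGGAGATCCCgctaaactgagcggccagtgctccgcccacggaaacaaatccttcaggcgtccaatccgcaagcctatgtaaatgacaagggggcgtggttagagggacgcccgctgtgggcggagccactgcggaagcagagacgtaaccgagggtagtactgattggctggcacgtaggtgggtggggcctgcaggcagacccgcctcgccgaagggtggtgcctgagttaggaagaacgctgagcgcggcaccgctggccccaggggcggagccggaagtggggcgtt

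The Bcl10 window held an NF-kB site match, GGGAGATCCC, at -241 to -232 from the start, and 8.46% of the 32851 windows in the table held one. The Nod1 window printed held a GAS site match, TTCCAGGAA, at -193 to -185, and the Nlrx1 window held TTCCTTGAA at -233 to -225, against 8.3% of windows with a GAS site. The other Nlrx1 window overlaps the one printed and held the same match at -125 to -117. All of these letters match the motif on both strands at the same position. Neither the Nod2 window nor the second Nod1 window held a match to any of the 4 motifs, of which the interferon-stimulated response element occurs in 3.44% and the AP-1 site in 7.81% of windows. These are matches of letters only.

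The probes of both peptidoglycan receptors that entered the test did so through LPS cells alone, and both passed as higher. With all 45281 probes tested and no filter on detection they passed too (limma adjusted p = 0.00213 for Nod1 and 0.00109 for Nod2). Nod1 encodes the receptor for peptidoglycan that contains diaminopimelic acid. Its single probe gave a signal of 137.5 and 132.2 in LPS cells and of 120.6 and 120.1 in untreated cells, with a standard error over beads of 2.33 to 3.91. Both LPS arrays lay above both untreated arrays, and the probe was detected on both LPS arrays and on 1 of the 2 untreated arrays (replicate B). On the normalized log2 scale it averaged 6.08 ± 0.0076 with LPS and 4.56 ± 0.098 in untreated cells (SD, n = 2 each), a fitted change of 1.52 ± 0.13 (SE, limma adjusted p = 0.000205). Since 1 of the 2 untreated arrays did not measure it above background, the size of this change is uncertain.

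Nod2 encodes the receptor for muramyl dipeptide, a fragment shared by most bacteria. Its probe ILMN_2702208 gave 150.3 and 143.2 with LPS and 121.9 and 114.0 in untreated cells, where it was detected on neither array. The groups did not overlap. Since the untreated level was not above background, the difference is a bound, and it holds for this background correction and offset only. The untreated level was taken as the higher of the probe's own value and the dimmest detected probe of each array. On that basis the normalized level was at least 3.64-fold higher with LPS. The test was of the fitted change, 1.96 ± 0.13 (SE, limma adjusted p = 5.80e-05). The measured log2 means were 6.43 ± 0.024 with LPS and 4.47 ± 0.078 in untreated cells (SD, n = 2 each). The other Nod2 probe, ILMN_1226395, was detected on none of the 4 arrays (104.0 and 100.7 with LPS, 113.4 and 107.4 in untreated cells) and was not tested.

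The size of both receptor changes depended on the background correction. Without it, on quantile normalized log2 signal, the change was 0.48 for Nod1 (limma adjusted p = 0.00431) and 0.67 for Nod2 (adjusted p = 0.00181).

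Nlrc5, the MHC class I transactivator of the NOD-like receptor family, had the largest fitted change of the 7 tested member probes, although the changes of Nod1 and Nod2 rest on untreated levels not above background on 1 and on both arrays. Its signal was 356.6 and 361.3 in LPS cells and 167.8 and 156.7 in untreated cells, and it was detected on all 4 arrays. Both LPS values lay above both untreated values. The standard error over beads, which covers the spread within an array only, was 3.61 to 10.1. The normalized log2 level averaged 8.68 ± 0.18 with LPS and 5.71 ± 0.068 in untreated cells (SD, n = 2 each), a change of 2.96 ± 0.15 (SE, limma adjusted p = 1.26e-05), or 7.81-fold. Only 0.877% of the tested probes had a larger change. Without background correction the change was 1.80 (limma adjusted p = 0.000482).

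Nlrx1, which encodes a mitochondrial NOD-like receptor described as a brake on antiviral and NF-kB signalling, had 3 probes. ILMN_2958484 gave 197.1 and 167.4 in LPS cells and 387.7 and 299.5 in untreated cells. ILMN_2708222 gave 115.0 and 109.7 with LPS and 158.9 and 146.2 in untreated cells. Both were detected on all 4 arrays and for both the LPS values lay below the untreated values. ILMN_2637897 was detected on no array, at 101.2 and 101.1 with LPS and 119.3 and 115.1 in untreated cells, and was not tested. It too was lower with LPS, and the LPS arrays had the lower median signal, so lower signal alone does not show a fall of Nlrx1. On this scale the groups did not overlap for any member probe, detected or not. The share of all probes without overlap was not computed. The separation of signals is therefore not read as a result about this or any other member.

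After normalization ILMN_2708222 was lower with LPS, with log2 means of 4.87 ± 0.25 with LPS and 5.51 ± 0.019 in untreated cells (SD, n = 2 each), a change of -0.63 ± 0.16 (SE, limma adjusted p = 0.0213). ILMN_2958484 had means of 7.13 ± 0.17 with LPS and 7.53 ± 0.11 in untreated cells, a change of -0.40 ± 0.15 that did not pass (limma adjusted p = 0.0789). The tested probes of Nlrx1 thus had the same sign, and 1 of them passed. That call was lost under 7 of 14 alternative settings, among them without background correction (-0.18, limma adjusted p = 0.0867), with the slide as a random block (adjusted p = 0.0528), and without untreated replicate A (-0.56, adjusted p = 0.172) or B (-0.59, adjusted p = 0.171), whereas ILMN_2958484 passed with median scaling over all probes (-1.26, adjusted p = 8.42e-05), with median scaling over the tested probes (-0.46, adjusted p = 0.0349) and without LPS replicate A (-0.52, adjusted p = 0.0116).

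Malt1 encodes the paracaspase that acts both as a scaffold and as a protease in CARD9-BCL10-MALT1 complexes. Its probe ILMN_1216818 gave a signal of 169.9 and 153.6 in LPS cells and of 129.2 and 122.3 in untreated cells, and was detected on all 4 arrays. The groups did not overlap. The normalized log2 level averaged 6.77 ± 0.078 with LPS and 4.73 ± 0.023 in untreated cells (SD, n = 2 each), a change of 2.04 ± 0.13 (SE, limma adjusted p = 4.76e-05), or 4.11-fold. Without background correction the change was 0.77 (limma adjusted p = 0.00135). The other probe, ILMN_2419951, was detected on no array (103.2 and 102.5 with LPS, 121.4 and 112.1 in untreated cells) and was not tested.

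Bcl10 encodes the CARD adaptor that nucleates filaments and recruits MALT1. For its probe ILMN_2660851 the deposited signal was lower with LPS, 844.3 and 738.8, against 1085 and 952.4 in untreated cells, and the groups did not overlap. After quantile normalization the order turned: the log2 level averaged 9.96 ± 0.020 with LPS and 9.47 ± 0.095 in untreated cells (SD, n = 2 each), a change of 0.49 ± 0.13 (SE, limma adjusted p = 0.0279). The ratio of the signal at the 95th percentile to the median signal was 7.47 and 6.59 on the LPS arrays and 12.01 and 10.06 on the untreated arrays, so quantile normalization raised bright probes on the LPS arrays relative to the untreated ones. With each array instead centred on its median over all probes the Bcl10 change was -0.28 (limma adjusted p = 0.215), beside a median of -0.62 over all tested probes in that setting, against -0.07 with quantile normalization. The call was also lost with the slide as a random block (adjusted p = 0.0973) and without untreated replicate A (0.43, adjusted p = 0.264) or B (0.56, adjusted p = 0.156). The second Bcl10 probe, ILMN_1215785, gave 109.2 and 107.4 with LPS and 122.5 and 115.4 in untreated cells, was detected on 1 LPS array only (replicate A) and was not tested.

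**Figure D2:**
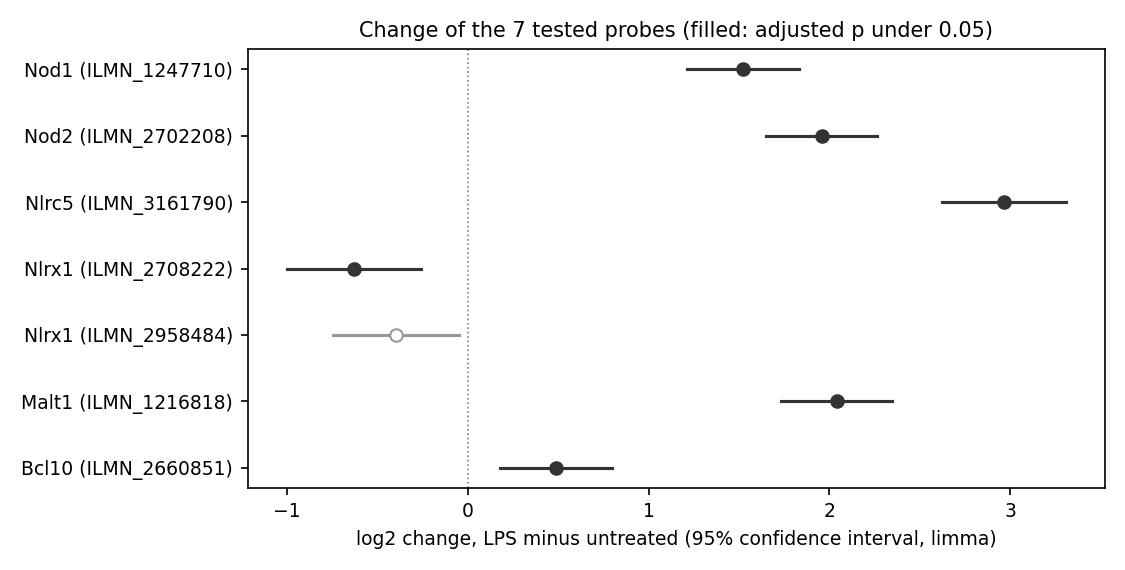
Log2 change (LPS minus untreated, normalized level) of the 7 tested member probes with 95% confidence intervals from limma, filled where the adjusted p was under 0.05. Nod1, Nod2, Nlrc5 and Malt1 lay between 1.52 and 2.96, Bcl10 at 0.49, and the 2 Nlrx1 probes at -0.63 and -0.40, where the Nod1 and Nod2 values are fitted ones against an untreated level not above background on 1 and on both arrays.

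For the higher genes detected on all 4 arrays, the 95% confidence interval of the log2 change was 2.62 to 3.31 for Nlrc5, 1.73 to 2.35 for Malt1 and 0.18 to 0.80 for Bcl10. For Nod1 and Nod2 the plotted intervals set no upper limit, since the untreated level was not above background on 1 and on both arrays. Differences between members were not tested. Nod1, Nod2, Nlrc5 and Malt1 passed as higher in every one of the 14 alternatives tried. Among these was the slide as a random block, where their limma adjusted p ranged from 4.38e-06 (Nlrc5) to 0.000348 (Nod1). The slides were split by condition, and this block cannot separate an effect of the slide from LPS. An effect of the slide on these genes was therefore not tested.

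**Figure D3:**
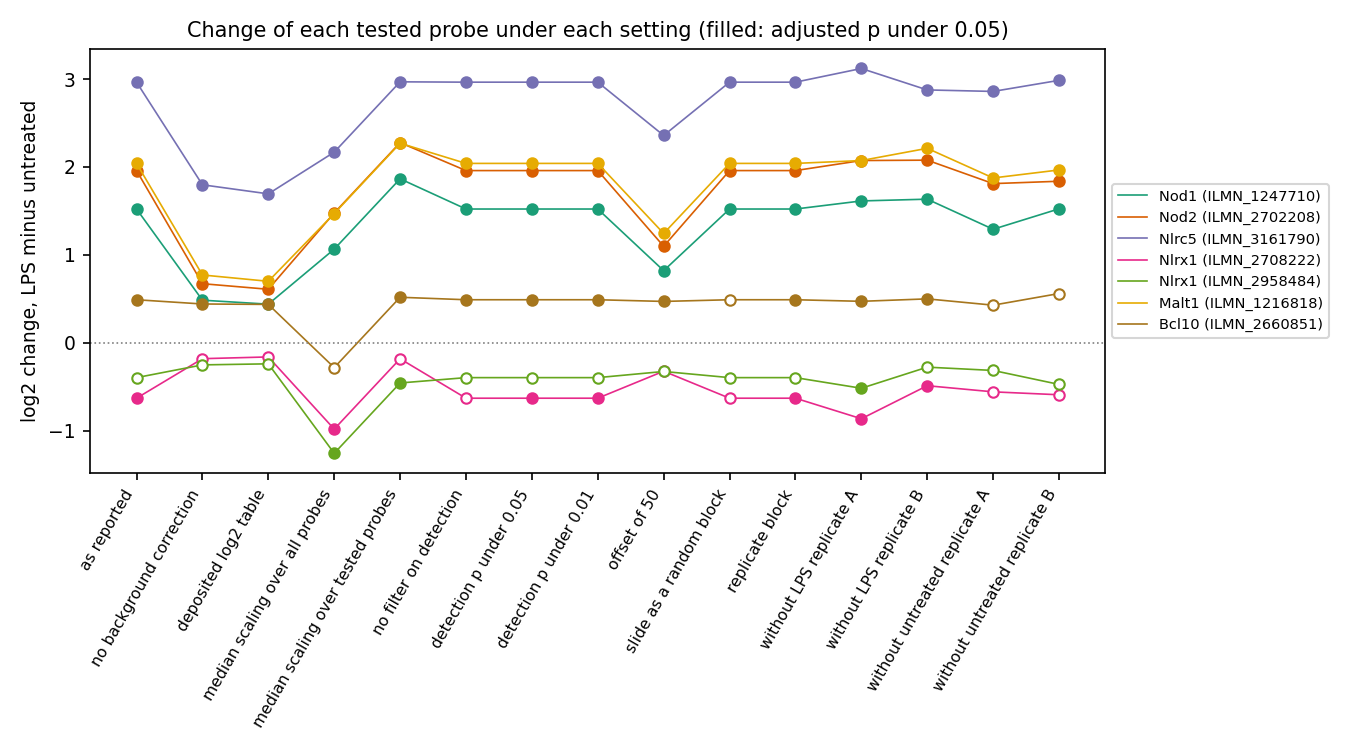
Log2 change (LPS minus untreated, y axis) of the 7 tested member probes as reported and under 14 other settings (x axis), filled where the adjusted p was under 0.05. Nod1, Nod2, Nlrc5 and Malt1 stayed above 0 and filled throughout, with smaller changes where no background was subtracted, whereas Bcl10 fell below 0 with median scaling over all probes, at -0.28.

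The genes around the members were counted by each gene's brightest tested probe, and over all 9729 tested genes 35.2% differed, 13.7% being higher and 21.4% lower with LPS, with a median log2 change of -0.09. Muramyl peptides reach the NOD receptors through peptide transporters, endolysosomal ones among them. Of 7 genes for muramyl peptide import and conversion 4 were tested, 1 was higher and 2 were lower, with a median of -0.51. Slc15a3, an endolysosomal peptide transporter, had normalized log2 levels of 11.44 and 11.21 with LPS and 8.84 and 8.80 in untreated cells (change 2.50 ± 0.14 SE, limma adjusted p = 2.47e-05). Slc15a4, a related transporter, was lower by -0.59 ± 0.14 (adjusted p = 0.0177), and so was Slc46a3, by a fitted -1.69 ± 0.17 (adjusted p = 0.000377), which entered the test through untreated cells alone and was detected on 1 of the 2 LPS arrays. The kinase gene Nagk, whose product phosphorylates muramyl dipeptide before NOD2 senses it, changed by -0.44 without passing (adjusted p = 0.0864), although 2 of its 4 tested probes passed as lower. The transporter genes of this list thus moved in both directions.

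Of 22 genes for the ubiquitin ligases, deubiquitinases and the TAK1-IKK relay that act below RIPK2, 18 were tested. Of these, 4 were higher and 2 were lower (13.7% and 21.4% over all tested genes), with a median of 0.15. The largest rise was that of Tnfaip3, which encodes the deubiquitinase A20 and had log2 levels of 9.05 and 8.81 with LPS and 5.32 and 5.65 in untreated cells (change 3.44 ± 0.17 SE, limma adjusted p = 1.15e-05). Rnf31, the catalytic subunit of the linear ubiquitin ligase complex, changed by 0.94 ± 0.13 (adjusted p = 0.00185), Sharpin, another subunit, by 0.52 ± 0.17 (adjusted p = 0.0497; -0.35 with median scaling over all probes), and Rbck1, the third, by 0.09 without passing (adjusted p = 0.77). Among the TAK1 adaptors Tab2 was higher by 0.60 ± 0.13 (adjusted p = 0.0119), although median scaling over all probes turned it to -0.26, while Tab1 was lower by -0.52 ± 0.14 (adjusted p = 0.024) and Tab3 by -0.46 ± 0.14 (adjusted p = 0.0446). The kinase genes Map3k7 (0.21, adjusted p = 0.367) and Ikbkb (0.30, adjusted p = 0.156) did not pass. Ikbkg, the regulatory IKK subunit, had probes that disagreed, 0.23 by the brightest (adjusted p = 0.325) and -1.07 by another (adjusted p = 0.00134). Xiap and Birc3, ubiquitin ligases for RIPK2, had no probe detected on both arrays of a condition. The list's counts depended on the scaling, with 1 higher and 11 lower when arrays were centred on the median over all probes. In that setting 4.76% of all tested probes were higher and 58.7% lower.

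Over all tested genes, 13.7% were higher and 21.4% lower as reported. Of all tested probes, 4.76% were higher with median scaling over all probes and 34.9% with median scaling over the tested probes. Upstream of CARD9, 9 of 11 receptor and kinase genes were tested, 3 were higher and 3 lower, with a median of 0.36. The count higher was 1 with median scaling over all probes, and 5 with median scaling over the tested probes or without LPS replicate A. The C-type lectin receptor gene Clec4e, which encodes Mincle, had log2 levels of 11.56 and 11.76 with LPS and 9.47 and 9.56 in untreated cells (change 2.14 ± 0.14 SE, limma adjusted p = 5.27e-05), and its other probe changed by 1.86. Clec7a, the Dectin-1 receptor, was higher by 0.58 ± 0.15 (adjusted p = 0.0227), although median scaling over all probes turned it to -0.19, and Prkcd, the kinase that phosphorylates CARD9, was higher by 0.85 ± 0.13 (adjusted p = 0.00286), but by 0.17 with median scaling over all probes (adjusted p = 0.447). Vav3, Vav2 and Vav1, guanine nucleotide exchange factors of this route, were lower, by -1.17 ± 0.14 (adjusted p = 0.000803), -0.95 ± 0.13 (adjusted p = 0.00177) and -0.68 ± 0.13 (adjusted p = 0.0072). The other tested Vav3 probes differed in sign and did not pass, at 0.33 (adjusted p = 0.172) and -0.19 (adjusted p = 0.441). The single probes of Syk and Fcer1g were not detected on both arrays of either condition. Of the other CARD scaffold genes, none of Card6, Card10, Card14 and Card19 was detected on both arrays of a condition.

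Among 13 other NOD-like receptor genes 4 were tested, 2 were higher and 1 was lower, with a median of 0.15. Over all tested genes the shares were 13.7% and 21.4%. Nlrp3, the inflammasome sensor, had log2 levels of 7.06 and 6.96 with LPS and 4.56 and 4.79 in untreated cells (fitted change 2.33 ± 0.14 SE, limma adjusted p = 3.83e-05). It entered the test through LPS cells alone, and in untreated cells this probe was detected on 1 of 2 arrays and its other probe on neither. Naip2, a sensor of bacterial secretion system proteins, changed by 0.55 ± 0.16 (adjusted p = 0.0361), but by -0.28 with median scaling over all probes. Nlrc3, described as an inhibitory member of the family, was lower by -1.33 ± 0.13 (adjusted p = 0.000342) and Naip5 did not pass (-0.24, adjusted p = 0.277). Ciita, the MHC class II counterpart of Nlrc5, was not detected.

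Over all tested genes, 13.7% were higher and 21.4% lower as reported. Over all tested probes, median scaling over all probes gave 4.76% higher and 58.7% lower. Median scaling over the tested probes gave 34.9% and 16.2%. Of 8 genes whose products MALT1 cleaves or is reported to cleave, all were tested, 4 were higher and none was lower, with a median of 0.62. With median scaling over all probes 3 were higher and 2 lower, scaling to the median of the tested probes gave 6 and 1, without LPS replicate A 6 and 0, and without LPS replicate B 5 and 1. As reported, the higher genes besides Tnfaip3 were Zc3h12a, which encodes the ribonuclease Regnase-1 (change 3.43 ± 0.16 SE, limma adjusted p = 1.09e-05), N4bp1 (1.55 ± 0.18, adjusted p = 0.000865) and the NF-kB subunit gene Relb (0.84 ± 0.19, adjusted p = 0.014). The Relb change was 0.0080 with median scaling over all probes (adjusted p = 0.978), and it did not pass with the deposited table (0.42, adjusted p = 0.0518) or with no filter on detection (adjusted p = 0.0789). Of 8 MHC class I genes, among them targets of NLRC5, 6 were higher and none was lower, with a median of 0.75. The shares over all tested genes are again 13.7% and 21.4%. Tap1, a subunit of the peptide transporter for MHC class I, had log2 levels of 8.63 and 8.47 with LPS and 5.72 and 5.65 in untreated cells (change 2.87 ± 0.14 SE, adjusted p = 1.09e-05). Tap2 changed by 1.96 ± 0.13 (adjusted p = 5.66e-05) and Tapbp by 1.25 ± 0.14 (adjusted p = 0.000773). The heavy chain gene H2-K1 was higher by 0.70 ± 0.14 (adjusted p = 0.00791), although at -0.0014 with median scaling over all probes, and its other tested probe went the other way without passing (-0.14, adjusted p = 0.525). H2-D1 (0.03, adjusted p = 0.908) and B2m (0.22, adjusted p = 0.293) did not pass. Of the 8, 2 passed as higher with median scaling over all probes and 8 when scaled to the median of the tested probes, 4 without untreated replicate A and 3 without untreated replicate B. Of 5 genes for partners of NLRX1, none was higher and 2 were lower, Tufm, a mitochondrial elongation factor, by -0.57 ± 0.13 (adjusted p = 0.0139) and the antiviral adaptor gene Mavs by -0.49 ± 0.14 (adjusted p = 0.0305). The count lower was 5 with median scaling over all probes, 1 when scaled to the median of the tested probes, 3 without LPS replicate B, and 0 with the slide as a random block or without either untreated array, and 1 gene was higher without LPS replicate A.

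Across these lists 29 genes passed, and 12 of them passed in every alternative tried: Clec4e, N4bp1, Nlrc3, Nlrp3, Slc15a3, Slc46a3, Tap1, Tap2, Tnfaip3, Vav2, Vav3 and Zc3h12a. The slide as a random block ended 9 calls (limma adjusted p of 0.0515 to 0.131), those of Slc15a4, Sharpin, Tab1, Tab3, Clec7a, Naip2, Psmb8, Tufm and Mavs. Leaving out untreated replicate A ended 13 (adjusted p of 0.0705 to 0.272) and leaving out untreated replicate B ended 14 (adjusted p of 0.0784 to 0.354), in both cases these 9 with Tab2, Vav1, Relb and H2-K1, and without replicate B also Psmb9. Prkcd, Rnf31 and Tapbp were lost only with median scaling over all probes. For the list genes too, calls kept or lost with the slide block did not test an effect of the slide.

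**Figure D4:**
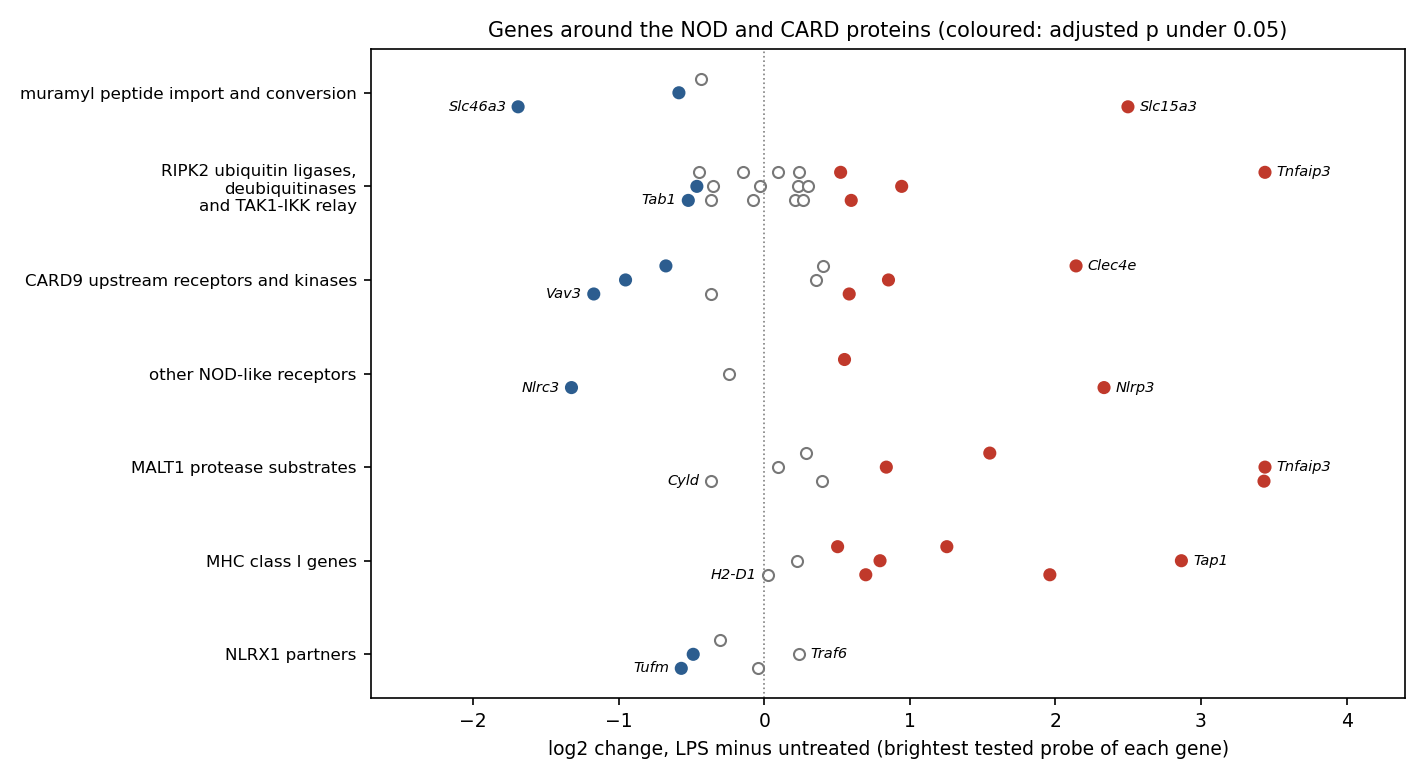
Log2 change (LPS minus untreated, x axis) of each tested gene around the members, by its brightest tested probe, with 1 row of points per list and the lowest and highest gene of each named (coloured where the adjusted p was under 0.05, red for higher and blue for lower). Tnfaip3 at 3.44 and Slc46a3 at a fitted -1.69 (detected on 1 of 2 LPS arrays) were the ends of the range, and the MHC class I list had no gene below 0.

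The genes whose 4 array values lay nearest to those of a member, each centred on its own mean, were named by the smallest root mean square difference over 4 arrays among 9728 other tested genes. Nfkb1 (0.020) and Rnf213 (0.027) were nearest to Malt1, Tap2 and Irak2 (0.030 each) to Nod2, Tpst1 (0.025) and Tlr6 (0.034) to Nod1, Bcl6b (0.042) and Phf11a (0.051) to Nlrc5, and Tagap (0.0060) and Plekhf2 (0.012) to Bcl10. With 4 arrays in 2 conditions this likeness is mostly the size of the change.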

How the data were processed

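RNA of 2 LPS-treated and 2 untreated RAW G9 cultures was hybridised to Illumina mouse bead arrays. The authors read the arrays with GenomeStudio 2011.1. Per array they deposited linear probe intensity without background subtraction, with a detection p-value, the bead number and the standard error over beads. They also deposited a table of log2 values of all 4 arrays. It was described here, from its values, as quantile normalized without background correction, and was used as an alternative. Groups came from the labels. Probes were named through the platform annotation, updated by Entrez ID (28620 of 35784 named probes), accession (2637) or symbol (4471), and 56 kept their symbol.

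Signals were background corrected with normexp, its negative controls being recovered from the detection p-values, with an offset of 16, quantile normalized and log2 transformed (neqc, limma 3.58.1, R 4.3.3). The LPS minus untreated change was tested two-sided with lmFit and eBayes on all 4 arrays, without covariates, over 17211 probes that had a detection p under 0.1 on the 2 arrays of LPS cells, of untreated cells or of both, with Benjamini-Hochberg adjustment at 0.05. The script was tested on simulated data as a check of the code only. The simulated spread came from the untreated arrays and held no slide effect, so error rates on these arrays were not tested. A gene of a list was taken by its brightest tested probe. Precision is limited by 2 arrays per condition.

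The members and lists were chosen with earlier results of these data known. All 8 members were to be named with every probe, up to 3 rises and 2 falls per list, the 2 nearest genes of each changed member, and any set of 5 or fewer as a whole. Rbck1, Map3k7, Ikbkb, Ikbkg, H2-K1, Psmb8, Psmb9 and Ciita were named outside that rule, after their values were seen. Alternatives varied the background correction, source of values, scaling, filter, offset, slide, replicate block and arrays.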

Additional observations from a re-analysis of the deposited data

How the results depend on the processing

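The count of member probes higher with LPS was 5 and stayed between 4 and 5 under the 14 alternatives, and 4 to 5 without 1 array. The count lower was 1, and it was 0 without background correction, with the deposited log2 table, with no filter on detection and with the slide as a random block, 2 with median scaling over all probes, and 0 to 2 without 1 array (2 without LPS replicate A, 0 without untreated replicate A or B). Of 98 values of member probes under the alternatives, 84 kept their direction and side of the threshold, 10 lost the threshold, 3 passed it newly and 1, Bcl10 with median scaling over all probes (-0.28), changed sign, as did Clec7a (-0.19), Naip2 (-0.28), Tab2 (-0.26), Sharpin (-0.35) and H2-K1 (-0.0014). The Nlrx1 probe ILMN_2708222 was also lost with the deposited table (-0.16, limma adjusted p = 0.0959), with median scaling over the tested probes (-0.18, adjusted p = 0.37) and with no filter (adjusted p = 0.0693). Where the correction was milder, the changes of dim probes shrank: with the deposited table to 0.44 (Nod1), 0.61 (Nod2), 1.69 (Nlrc5) and 0.70 (Malt1), and with an offset of 50 to 0.82, 1.10, 2.36 and 1.24.

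The scaling set the balance of calls over all probes: 41.6% of calls were higher as reported, 7.5% with median scaling over all probes (819 higher, 10095 lower, median change -0.62) and 68.3% with median scaling over the tested probes (6002 higher, 2789 lower, median change 0.18). Calls numbered 1600 higher and 2017 lower with the slide as a random block (within-slide correlation 0.55, averaged over probes by restricted maximum likelihood, since limma's own estimate failed with 3 slides), 1106 and 1085 without untreated replicate A, 1085 and 1013 without B, 4032 and 4776 without LPS replicate A, and 3941 and 4859 without LPS replicate B. In these last fits 1 condition has a lone array, assumed to vary like the other condition. With the slide block only the untreated arrays share a slide, so that setting did not test an effect of the slide. With the replicate block the member probes stayed at 5 higher and 1 lower, with 2639 higher and 3689 lower calls over all probes. Replicates of the same letter deviated together at r = 0.15. Neither the labels nor the methods say whether they were paired. Member genes detected in untreated cells numbered 4, and 3 to 5 under the other detection rules, with 6 throughout for LPS. Of 406 values of the 29 list genes that passed, 344 kept their call, 57 lost it and 5 changed sign, and 186 of 224 list counts stayed within 1.5 times. Signals of Nod1, Nod2 and Malt1 close to the array median limit the precision of their folds.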
